A study of Nicotiana tabacum with 16 samples.

Results

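A stretch of neighbouring tobacco gene models lay near 50% of the K326 level in nic1 nic2 roots, and its gene models are described here one by one against that level. The stretch held all 356 gene models of ID group 18 with serial numbers from 18660 to 22210, of 2314 in ID group 18 and 63697 in the table. Its ends came from earlier results of these data on nic1 nic2 against K326, so every value of nic1 nic2 against K326 is a description with no test. Roots came from 3 libraries of nic1 nic2, 4 of nic1 nic2 myc2a, 5 of myc2a and 4 of K326. K326 is a flue-cured tobacco (Nicotiana tabacum) cultivar, and all recessive genotypes were in its background: nic1 nic2 carried recessive alleles at Nic1 and Nic2, myc2a at Myc2a, and nic1 nic2 myc2a at all of these loci. All plants were grown in pots partly immersed in water, decapitated (topped) at flowering and sampled 18 h later. The labels give 3 to 5 plants per genotype without tying a library to a plant, so p-values cover only the spread seen among these libraries, which may be technical.

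The Nic loci and MYC2a, a bHLH transcription factor of jasmonate signalling, control the synthesis of nicotine, which takes place in roots and is stimulated by topping. Nearly isogenic lines are made by repeated crossing to 1 parent, so that they share most of its genome. Tobacco is an allotetraploid, so many genes have a similar copy from the other ancestral genome, and reads of near-identical copies may be assigned to either. In a whole root, less RNA per cell and fewer cells with that RNA cannot be told apart.

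No gene names, lengths or sequences could be tied to these identifiers: 0 of the 63697 matched the RefSeq table of Nicotiana tabacum. Serial numbers are the order of the identifiers, which is not stated to be the order on a chromosome. For the same reason, the root identity of the libraries could not be checked against marker genes, and CPM is not corrected for the length of a gene model, so an order of gene models by CPM is an order of counts and not of transcript abundance. Total counts per library lay between 32167776 and 40858135, except for K326 replicate 2 with 71836276. Of counts from 1 to 199, 61.9% were even. Counting both mates of a read pair can give such an excess, but the cause was not tested.

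Of the 356 gene models, 62 had no count in any library, and 97 more had counts but a mean under 2 CPM (a count scaled by the TMM-adjusted size of its library). The other 197 averaged 2 CPM or more over all 16 libraries, and 254 passed the count filter for tests. Percentages below are levels relative to the mean of the 4 K326 libraries. Over the 197 gene models, the median was 51.4, 50.05 and 48.6% in nic1 nic2 replicates 1, 2 and 3, against 99.4, 101.7, 98.2 and 99.8% in K326 replicates 1 to 4. In nic1 nic2 myc2a the median lay between 98.96 and 103.6%, and in myc2a between 97.95 and 100.4%. The 3 nic1 nic2 libraries thus lay far below the 13 others, which overlapped each other.

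**Figure D1:**
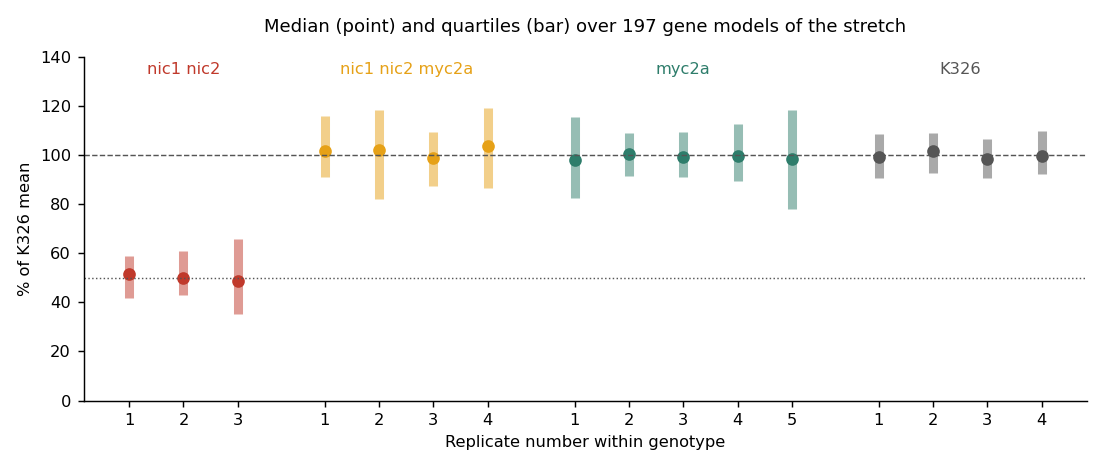
Level of the stretch in each library, in percent of the K326 mean, with points for the median and bars for the quartiles over the 197 gene models of 2 CPM or more. The 3 nic1 nic2 medians sit between 48.6 and 51.4% and all other libraries between 97.95 and 103.6%, with the widest bar among the nic1 nic2 libraries in replicate 3.

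The summed level of all 356 gene models gave the same order. It was 3132, 3086 and 2867 CPM in nic1 nic2, against 6227, 6481, 6042 and 6305 CPM in K326. The sum lay between 5755 and 6228 CPM in nic1 nic2 myc2a and between 5499 and 6236 CPM in myc2a. The stretch thus made up 0.314 ± 0.0026% of all counts in nic1 nic2 (SD, n = 3), 0.606 ± 0.0216% in nic1 nic2 myc2a (n = 4), 0.589 ± 0.0161% in myc2a (n = 5) and 0.611 ± 0.0135% in K326 (n = 4).

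With another genotype as the denominator, the nic1 nic2 level stayed near 50%. The median over the 197 gene models was 50.4% of the nic1 nic2 myc2a mean and 50.4% of the myc2a mean, against 50.8% of the K326 mean. This is the ratio of group means per gene model, and its quartiles were 42.3 and 58.3% against nic1 nic2 myc2a, 43.5 and 60.2% against myc2a, and 42.1 and 61.0% against K326.

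**Figure D2:**
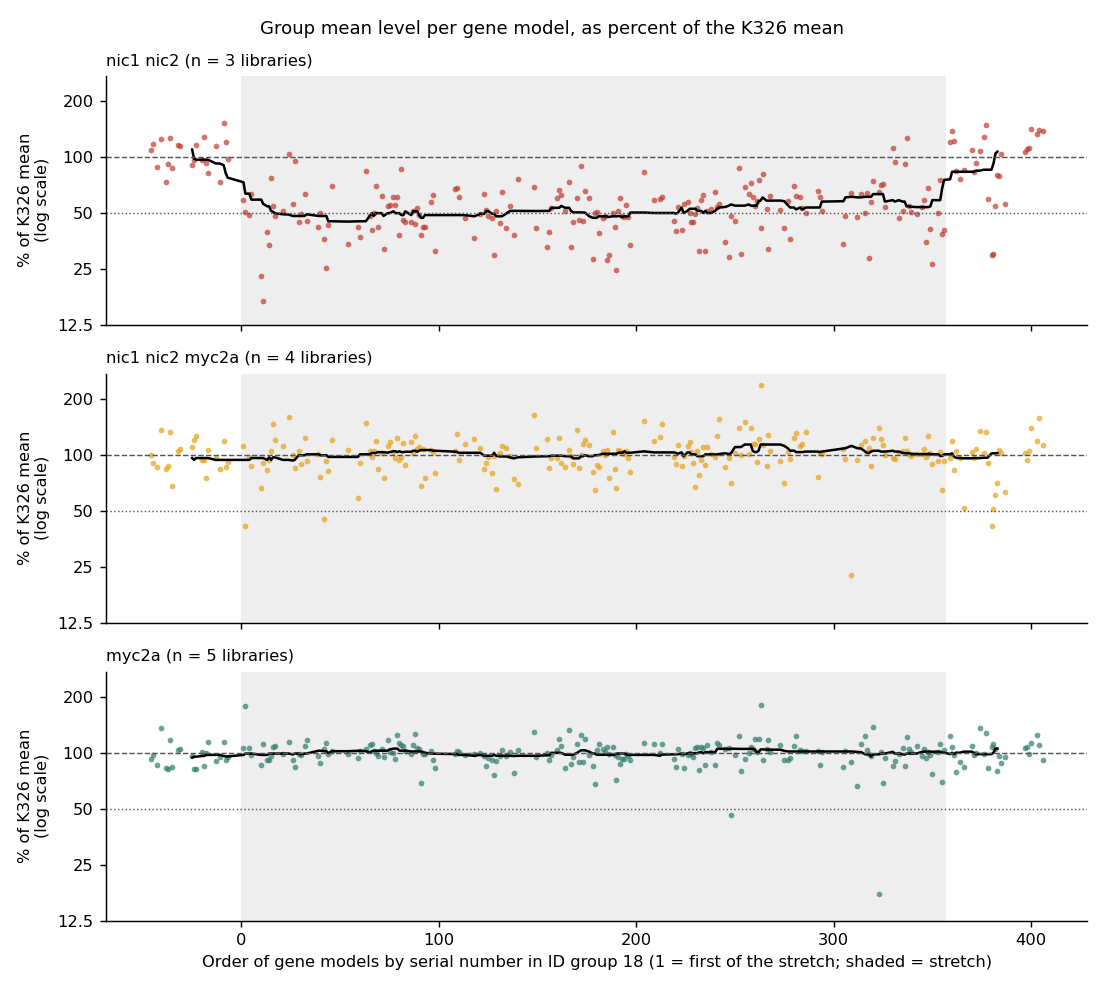
Group mean of each gene model with at least 2 CPM, in percent of the K326 mean on a log scale, in the order of serial numbers, for nic1 nic2, nic1 nic2 myc2a and myc2a. The stretch is shaded, 50 gene models are shown on each side, and the line is a running median of 21 gene models; it runs near 50% across the shaded part in nic1 nic2 and near 100% in both other genotypes.

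Along the stretch, the nic1 nic2 library medians stayed between 42.8 and 54.6%. When the 356 gene models were split into 4 equal runs of 89 by serial number, the median in nic1 nic2 was 46.6 ± 3.41% (SD, n = 3 libraries) from 18660 to 19540, 51.6 ± 2.59% from 19550 to 20430, 49.3 ± 1.73% from 20440 to 21320 and 52.7 ± 0.697% from 21330 to 22210. The libraries of the first run all lay below those of the next one, and those of the next one overlapped the run after it. In the same 4 runs the means of the library medians lay between 100.2 and 102.5% in nic1 nic2 myc2a and between 97.9 and 101.2% in myc2a.

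Outside both ends the nic1 nic2 level lay near that of K326. Over the 50 gene models before the stretch (18160 to 18650, 22 of them with at least 2 CPM) the library medians were 97.8 to 108% in nic1 nic2, against 93.5 to 108% in K326. Over the 50 after it (22220 to 22710, 27 with at least 2 CPM) they were 91.1 to 106% in nic1 nic2, against 95.1 to 106% in K326. The libraries of both genotypes overlapped on each side.

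At the first end, the last gene models outside with at least 2 CPM were Ntab18g018560-1.1, Ntab18g018570-1.1 and Ntab18g018580-1.1, with nic1 nic2 means of 152, 120.2 and 97.5% of K326. The first inside were Ntab18g018660-1.1, Ntab18g018670-1.1 and Ntab18g018690-1.1, with 58.8, 50.5 and 48.8%. Among these, Ntab18g018660-1.1 had 5.26, 8.20 and 4.40 CPM in nic1 nic2, against 11.9, 9.88, 8.83 and 9.95 CPM in K326. Every nic1 nic2 library of this gene model lay below every K326 library.

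At the other end, the last gene models inside were Ntab18g022190-1.1, Ntab18g022200-1.1 and Ntab18g022210-1.1, with nic1 nic2 means of 75.1, 38.3 and 40.6% of K326. The next outside were Ntab18g022240-1.1, Ntab18g022250-1.1 and Ntab18g022260-1.1, with 119.5, 136.9 and 121.0%. In Ntab18g022190-1.1 the nic1 nic2 libraries disagreed, with 12.52 and 12.44 CPM in replicates 1 and 2 and 27.6 CPM in replicate 3, against 19.4, 25.02, 27.1 and 21.9 CPM in K326. Replicate 3 was above every K326 library there, and the other two were below all of them.

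Close to the first end, 1 K326 library also stood apart. In a run of 69 gene models taken from earlier results of these data, 34 with at least 2 CPM had a median of 134.7% of the K326 mean in K326 replicate 2, against 83.0 to 86.9% in the other K326 libraries. This run overlaps the 50 gene models before the stretch but not the stretch itself. Within the stretch K326 replicate 2 was at 101.7%, and without it the median ratio of nic1 nic2 to K326 was 50.6%.

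By expression level, the ratio lay near 50% in each class from 2 CPM upward. For 60 gene models of 2 to under 8 CPM the summed level was 51.7, 55.8 and 48.6% of K326 in nic1 nic2, for 90 gene models of 8 to under 32 CPM it was 52.8, 51.8 and 53.1%, and for 47 gene models of 32 CPM and over it was 48.6, 47.6 and 42.2%. In these 3 classes no nic1 nic2 library overlapped any other library, since the lowest of the others was myc2a replicate 5 with 81.5% in the highest class. The sums of the highest class reached lower values also in both control genotypes. They were 86.2 to 98.7% in nic1 nic2 myc2a and 81.5 to 98.1% in myc2a, and both overlapped the 95.6 to 104% in K326. The median over the gene models of this class was 92.8 to 98.6% in nic1 nic2 myc2a. In myc2a it was 96.1 to 100.5% in replicates 1 to 4 and 85.4% in replicate 5, against 97.6 to 100.9% in K326.

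Gene models with low counts were less uniform. In 36 gene models of 0.5 to under 2 CPM the sum was 57.7, 65.2 and 67.3% of K326 in nic1 nic2. It was 68.8 to 113% in nic1 nic2 myc2a, 78.3 to 126% in myc2a and 91.6 to 109% in K326. The median over these gene models was 57.1, 50.9 and 65.0% in nic1 nic2, against 92.0 to 101.2% in K326. It was 72.9 to 110.9% in nic1 nic2 myc2a and 90.0 to 114.2% in myc2a. In 61 gene models with counts but under 0.5 CPM the sum was 76.7, 55.5 and 109% in nic1 nic2. It was 78.6 to 116% in K326, and the genotypes overlapped in the sum. The median of this class was lower, at 14.6, 0 and 0% in nic1 nic2, against 60.9 to 90.8% in K326. It was 30.5 to 67.2% in nic1 nic2 myc2a, and 0% also in myc2a replicate 5. Without a count were 36, 41 and 44 of the 61 in nic1 nic2, against 28 to 30 in K326 and 40 in myc2a replicate 5. That class rested on summed counts of 213, 167 and 320 in nic1 nic2 and of 262 to 677 in K326; the cause of its wider spread was not tested. There were 14 gene models without counts in all 3 nic1 nic2 libraries that had counts in K326. None of these exceeded a K326 mean of 0.159 CPM. Another 6 had counts in nic1 nic2 and none in K326. K326 had 4 libraries, among them the deeper replicate 2, so both numbers are not on an equal footing. They were not set beside those over all gene models.

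**Figure D3:**
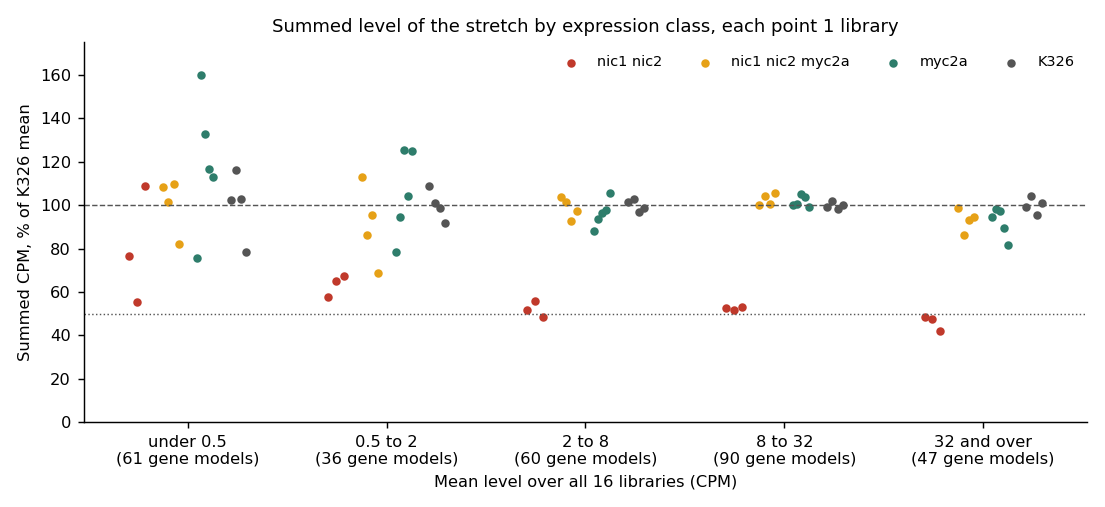
Summed CPM of the stretch in 5 classes of mean level over all 16 libraries, in percent of the K326 mean, with 1 point per library. The nic1 nic2 points lie between 42.2 and 55.8% in the 3 classes from 2 CPM upward and spread from 55.5 to 109% in the class under 0.5 CPM.

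Most single gene models lay around 50% in nic1 nic2. Of the 197, 132 had a nic1 nic2 mean of 40 to under 67% of K326, 19 were below 33% and 15 at 75% or over, and 194 were below 100%. In the same range of 40 to under 67% lay 8 of the 197 in nic1 nic2 myc2a and 2 in myc2a. In the rest of ID group 18, 534 of 1033 gene models were below 100% in nic1 nic2, with a median of 99.4%.

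The libraries of both genotypes separated fully in many gene models. Of the 254 tested, 170 had every nic1 nic2 library below every K326 library, where 9.38% of all 43009 tested gene models did so, and 0 had every one above, where 7.86% of all did. Below all 13 other libraries lay 134 of the 254, where 0.993% of all did. In edgeR's quasi-likelihood test 111 of the 254 were called lower at an adjusted p of 0.05, where 0.579% of all 43009 were called lower. The rule that set the stretch used this contrast, so nothing is read from these counts. The median log2 fold change of the 254 was -0.95, against -0.00 over all gene models tested.

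**Figure D4:**
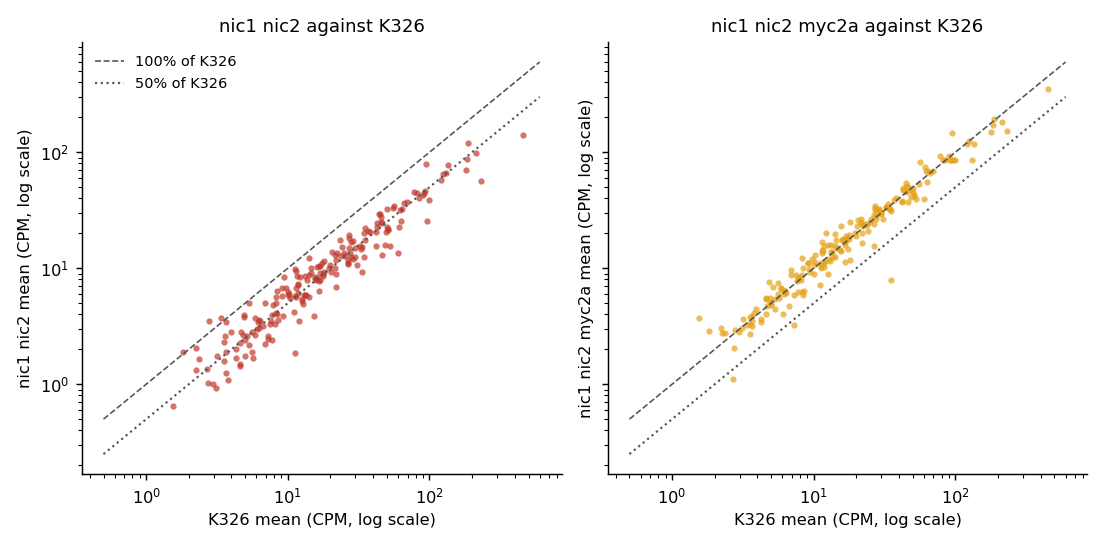
Mean level of the 197 gene models in nic1 nic2 (left) and in nic1 nic2 myc2a (right) against K326, in CPM on log axes, with lines at 100% and 50% of K326. In nic1 nic2 the points scatter around the line at 50%, with a median of 50.8%, and most of those with the highest CPM lie below it. In nic1 nic2 myc2a they scatter around the line at 100%, with a median of 101.9%.

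Some gene models were picked because all 3 nic1 nic2 libraries lay nearest to 50%, so their ratios to K326 follow from that choice. Ntab18g022180-1.1 had 46.0, 49.9 and 42.9 CPM in nic1 nic2, against 77.6, 84.5, 87.8 and 92.4 CPM in nic1 nic2 myc2a and 94.1, 93.1, 95.05 and 89.6 CPM in K326. Its 5 myc2a libraries had 82.1 to 101.5 CPM. Ntab18g021490-1.1 had 22.6, 23.5 and 22.3 CPM in nic1 nic2, against 41.6, 41.5, 41.9 and 46.2 CPM in K326. In both, the nic1 nic2 libraries lay below all 13 others.

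A pair of gene models with lower CPM was picked by the same closeness to 50% in all nic1 nic2 libraries. Their ratios and the small spread between these libraries follow from that choice. Ntab18g021010-1.1 averaged 8.20 ± 0.311 CPM in nic1 nic2 (SD, n = 3), or 51.1% of the 16.0 ± 1.78 CPM in K326 (n = 4). Ntab18g021310-1.1 averaged 6.13 ± 0.161 CPM in nic1 nic2, or 52.1% of the 11.8 ± 2.00 CPM in K326.

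The gene model with the highest CPM was low in nic1 nic2 and somewhat lower in both control genotypes too. Ntab18g020970-1.1 had 164, 170.2 and 87.2 CPM in nic1 nic2, against 438.4, 500.7, 429.2 and 446.6 CPM in K326. It averaged 353.7 ± 63.9 CPM in nic1 nic2 myc2a (SD, n = 4) and 364 ± 46.0 CPM in myc2a (n = 5). No nic1 nic2 myc2a or myc2a library reached the lowest K326 library, and every nic1 nic2 library lay below all of them. The nic1 nic2 mean was 31.0% of K326, 39.7% of nic1 nic2 myc2a and 38.6% of myc2a. Neither control comparison of this gene model was called (log2 fold change -0.36 ± 0.19 with SE and edgeR adjusted p = 0.401 in nic1 nic2 myc2a, -0.32 ± 0.18 and edgeR adjusted p = 1.000 in myc2a).

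The next 5 by CPM ranged from 24.5 to 63.9% of K326 in nic1 nic2. The highest ratio was that of Ntab18g021820-1.1, with 108, 107 and 144 CPM in nic1 nic2, against 197, 183, 192 and 178 CPM in K326. The lowest was that of Ntab18g020550-1.1, with 73.4, 77.8 and 18.0 CPM in nic1 nic2, against 270.4, 280.2, 179 and 191 CPM in K326. This gene model also varied in the other genotypes, from 100.4 to 227 CPM in nic1 nic2 myc2a and from 113 to 241 CPM in myc2a. Ntab18g020360-1.1, Ntab18g018780-1.1 and Ntab18g021770-1.1 were at 45.7, 39.1 and 47.4% of K326 in nic1 nic2.

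Some gene models departed from 50% in every nic1 nic2 library. Of the 197, 4 had all 3 libraries above 75% of the K326 mean and 3 had all 3 below 33%. By contrast, 52 gene models had at least 1 nic1 nic2 library above 75% and 62 at least 1 below 33%, and in 90 all 3 libraries lay between these limits. These numbers were not set beside those of gene models outside the stretch, whose ratios also spread around their own median.

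Ntab18g020690-1.1 had the highest CPM of the 4 upward departures, with 75.8, 82.8 and 78.5 CPM in nic1 nic2, against 97.1, 80.9, 89.4 and 113 CPM in K326. Its nic1 nic2 libraries overlapped those of K326, at a mean of 83.1%. In nic1 nic2 myc2a it had 129.8, 153, 130.1 and 168 CPM, above every K326 library, and the nic1 nic2 mean was 54.5% of that level. The difference of nic1 nic2 myc2a from K326 was not called (log2 fold change 0.61 ± 0.20, SE; edgeR adjusted p = 0.18, range 0.0509 to 0.424 over 23 alternatives). In myc2a it varied from 78.6 to 168 CPM.

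Ntab18g018890-1.1, at a low CPM, was also highest in nic1 nic2 myc2a. It had 1.57, 2.45 and 1.63 CPM in nic1 nic2, against 3.13, 2.92, 2.52 and 3.05 CPM in nic1 nic2 myc2a and 1.47, 1.80, 1.89 and 2.09 CPM in K326. The nic1 nic2 mean was 104% of K326 but 64.9% of nic1 nic2 myc2a, and nic1 nic2 myc2a against K326 was not called (log2 fold change 0.68 ± 0.28, SE; edgeR adjusted p = 0.28, range 0.143 to 0.529 over 23 alternatives).

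The neighbours Ntab18g021950-1.1 and Ntab18g021960-1.1 were the other upward departures, and their nic1 nic2 means lay between 93.4 and 130.1% of the other genotypes. Ntab18g021950-1.1 had 4.35, 2.70 and 4.15 CPM in nic1 nic2, against 2.35, 4.08, 4.85 and 2.19 CPM in K326, and its nic1 nic2 mean was 111% of K326, 115% of nic1 nic2 myc2a and 130.1% of myc2a. Ntab18g021960-1.1 was at 93.4, 97.9 and 104% of these. The genotypes overlapped in both gene models. Their levels moved together over the 16 libraries (Pearson's r = 0.896, as a description), and sharing of reads between them was not tested. Their K326 libraries spread widely, and without K326 replicate 1 or 4 neither met the limit of 75%, which left 2 upward departures.

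**Figure D5:**
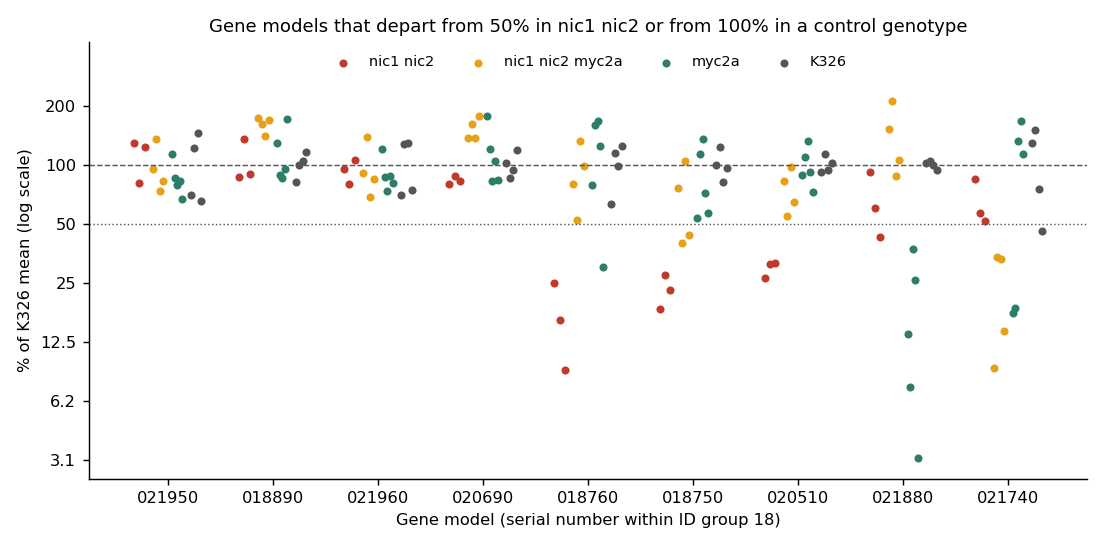
Level in each library, in percent of the K326 mean on a log scale, of the 7 gene models that depart from 50% in every nic1 nic2 library and of 2 that depart from K326 in a control genotype, named by serial number, with 1 point per library. Ntab18g020690-1.1 lies near 83.1% in nic1 nic2 with its nic1 nic2 myc2a libraries above all K326 libraries, and Ntab18g021880-1.1 lies below 50% in every myc2a library.

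Of the 3 downward departures, Ntab18g018750-1.1 and Ntab18g018760-1.1 are neighbours close to the first end. Ntab18g018760-1.1 had 2.78, 1.81 and 1.00 CPM in nic1 nic2, against 7.04, 12.8, 11.0 and 13.9 CPM in K326, a mean of 16.7% of K326 and the lowest ratio of the 197. In the control genotypes it varied from 5.81 to 14.8 CPM in nic1 nic2 myc2a and from 3.34 to 18.8 CPM in myc2a. Every nic1 nic2 library lay below all 13 others.

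Ntab18g018750-1.1 had 10.9, 16.4 and 13.6 CPM in nic1 nic2, against 59.6, 73.5, 48.6 and 57.4 CPM in K326, or 22.9% in the mean. In nic1 nic2 myc2a it had 45.4, 23.7, 62.2 and 26.2 CPM, so that the nic1 nic2 mean was 34.7% of that genotype. Ntab18g020510-1.1 had 13.8, 16.4 and 16.5 CPM in nic1 nic2, against 48.1, 59.4, 48.9 and 53.2 CPM in K326, or 29.7% of K326 and 39.7% of nic1 nic2 myc2a. In all 3 downward departures the nic1 nic2 libraries lay below those of every other genotype.

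The spread around the median was somewhat wider in the stretch than in the rest of ID group 18 in nic1 nic2, and narrower in the group means of both other genotypes. On the log2 scale, the distance between the quartiles of the nic1 nic2 to K326 ratio was 0.53 over the 197 gene models and 0.47 over the rest of ID group 18. It was 0.33 and 0.40 for nic1 nic2 myc2a to K326, and 0.20 and 0.25 for myc2a to K326. These differences were not tested. In single libraries it was 0.50, 0.51 and 0.90 in the stretch for nic1 nic2 replicates 1, 2 and 3, and 0.44, 0.48 and 0.88 in the rest of ID group 18. The wider spread of nic1 nic2 replicate 3 was thus present inside and outside the stretch. This library also had the fewest gene models with a count over the table, 41283, against 42797 to 45675 in the others. A link between these was not tested. Of 60 gene models whose highest nic1 nic2 library was at least 2-fold above the lowest, replicate 3 was farthest from the middle library in 40. Below 33% of K326 lay 47 gene models in replicate 3, against 16 in replicate 1 and 15 in replicate 2, and above 75% lay 34 in replicate 3, against 13 and 23. Across the 197 gene models, the log2 ratios to K326 of pairs of nic1 nic2 libraries correlated with Pearson's r of 0.311 to 0.462; these pairs share the K326 libraries, and the values are a description.

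Against K326, the stretch showed few called differences in nic1 nic2 myc2a, which also carries nic1 nic2, or in myc2a. Both comparisons share the K326 libraries. In nic1 nic2 myc2a edgeR called 0 of 254 at an adjusted p of 0.05, where 0.295% of all gene models were called, and 26 of 254 had an unadjusted p under 0.05, where 14.1% of all did. Limma-voom called 0 of 254 and 144 of all 43009. DESeq2 called 3 gene models of the stretch, and 998 of the 39668 gene models of the table with an adjusted p. How many of the 254 had such a p was not counted, so no share is given for them. Chosen after their values were seen, the 3 called by DESeq2 were Ntab18g020130-1.1, Ntab18g020280-1.1 and Ntab18g020780-1.1. Ntab18g020280-1.1, at a low level, was low in both genotypes that carry nic1 nic2, with 0.113 ± 0.147 CPM in nic1 nic2 (SD, n = 3) and 0.132 ± 0.0540 CPM in nic1 nic2 myc2a (n = 4), against 1.26 ± 0.386 CPM in myc2a (n = 5) and 1.26 ± 0.832 CPM in K326 (n = 4). In nic1 nic2 myc2a against K326 it was also called by edgeR without nic1 nic2 replicate 3 (edgeR adjusted p = 0.0364) and with only both genotypes compared (edgeR adjusted p = 0.0438). That fit of 2 genotypes called Ntab18g020780-1.1 (edgeR adjusted p = 0.0459) and Ntab18g021390-1.1 (edgeR adjusted p = 0.0438) too.

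Full separation of nic1 nic2 myc2a from K326 was no more frequent in the stretch than over all gene models. Of the 254, 15 had every nic1 nic2 myc2a library above every K326 library, where 6.13% of all gene models did, and 10 had every one below, where 5.3% did. The gene models called by DESeq2 are among them. Among the 13 of the 15 with at least 2 CPM, the median nic1 nic2 level was 60.4% of K326 and 42.1% of nic1 nic2 myc2a. Among the 8 of the 10 with at least 2 CPM, it was 37.5% of K326 and 48.7% of nic1 nic2 myc2a. These gene models were picked by their position against K326, and the medians carry no test.

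One of them had a lower level in nic1 nic2 myc2a than in nic1 nic2. Ntab18g021740-1.1, chosen after its values were seen, had 3.21, 11.9, 11.5 and 4.92 CPM in nic1 nic2 myc2a, against 29.4, 19.7 and 18.1 CPM in nic1 nic2 and 44.99, 52.3, 26.3 and 16.1 CPM in K326. The difference of nic1 nic2 myc2a from K326 was not called (log2 fold change -2.15 ± 0.64, SE; edgeR adjusted p = 0.154, range 0.05001 to 0.355 over 23 alternatives). In myc2a it had 6.12 and 6.50 CPM in replicates 1 and 2 and 39.8 to 58.4 CPM in replicates 3 to 5, so its level also varied widely within a genotype.

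Of the 254, 2 had every myc2a library below every K326 library, where 1.35% of all gene models did, and 3 had every one above, where 0.993% did. In myc2a, edgeR called 1 of 254 gene models, where 0.17% of all were called, and 8 had an unadjusted p under 0.05, where 5.21% of all did. The called one, Ntab18g021880-1.1, had 2.46, 1.32, 6.68, 4.61 and 0.570 CPM in myc2a, against 18.3, 18.7, 18.0 and 16.9 CPM in K326. Its log2 fold change was -2.53 ± 0.47 (SE), with an edgeR adjusted p of 0.0419 and with every myc2a library below every library of the other genotypes. In nic1 nic2 it had 16.5, 10.8 and 7.66 CPM, or 64.7% of K326, and in nic1 nic2 myc2a 27.3, 37.9, 15.8 and 18.9 CPM, so it was not low in the other genotype that carries myc2a. The call was lost in 12 of 23 alternatives (adjusted p from 0.00138 to 0.167), while the log2 fold change stayed between -3.03 and -2.25 in all 23. These were the fits without K326 replicate 1 (edgeR adjusted p = 0.139), 2 (0.136), 3 (0.0881) or 4 (0.0877), without nic1 nic2 replicate 2 (0.0598), without myc2a replicate 2 (0.147) or 4 (0.08), without nic1 nic2 myc2a replicate 1 (0.0596) or 4 (0.058), with K326 replicate 2 and nic1 nic2 replicate 3 left out (0.144), with only both genotypes compared (0.167) and with a replicate block (0.103).

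A stretch of ID group 11, also taken from earlier results of these data, lay near 50% in myc2a replicates 2 to 5. There, 654 gene models with at least 2 CPM had a median of 98.3% of K326 in myc2a replicate 1 and of 50.3, 50.1, 50.7 and 51.4% in replicates 2 to 5. Over the same gene models, the group means of nic1 nic2 myc2a, which also carries myc2a, had a median of 98.6% of K326. Those of nic1 nic2 had a median of 101.1%. In nic1 nic2 all 3 libraries shared the lower level of the stretch of ID group 18, at 48.6 to 51.4%, and 0 of the 5 myc2a and 0 of the 4 nic1 nic2 myc2a libraries did.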

How the data were processed

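Root RNA was sequenced in 16 libraries, prepared with a directional kit per the labels' protocols. The submitters' processing notes name FastQC, HISAT2 2.1.0, SAMtools and bedtools; genome build, annotation and counting settings are not given in the sources used here. Whole-number counts per gene model were deposited by the authors without normalization. The columns of nic1 nic2 myc2a were matched by genotype letters, written in another order than in the titles, and number.

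Counts were filtered with filterByExpr, scaled by TMM and tested with edgeR 4.0.16 (quasi-likelihood, 1 mean per genotype, all 16 libraries) in R 4.3.3, with Benjamini-Hochberg adjustment over 43009 gene models and a threshold of 0.05; the procedure was tested on simulated data. CPM used TMM-scaled totals. DESeq2 1.42.0 and limma-voom (limma 3.58.1) were alternatives. Members, limits and tests were chosen with earlier results of these data known. Gene models were named by rule: the 6 highest, every departure beyond 75 or 33%, 3 on each side of each end, those called in a control genotype, and the 4 closest to 50% with at least 8 CPM. Ntab18g021740-1.1 and the gene models called only by an alternative fit in nic1 nic2 myc2a were chosen after their values were seen.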

Additional observations from a re-analysis of the deposited data

Results flagged for a closer look

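In 12 of 111 groups of 4 or 5 libraries, 1 library lay far from the others of its genotype; chance flags about 1 in 20. In the run of 69 gene models close to the first end, the median of K326 replicate 2 was 134.7% of the K326 mean. The other K326 libraries were at 83.0 to 86.9%. That run was itself taken from earlier results of these data for K326 replicate 2, so this flag says nothing beyond that choice. K326 replicate 2 was also high in Ntab18g022210-1.1 (29.3 CPM, others 19.1 to 19.5), K326 replicate 3 low in Ntab18g022240-1.1 (3.44 CPM, others 5.52 to 5.92) and Ntab18g022250-1.1 (22.7 CPM, others 25.2 to 25.5), and K326 replicate 4 high in Ntab18g021490-1.1 (46.2 CPM, others 41.5 to 41.9).

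Among the myc2a libraries, replicate 5 was high in Ntab18g018660-1.1 (14.2 CPM, others 9.22 to 10.6), Ntab18g022190-1.1 (31.2 CPM, others 24.1 to 25.3) and Ntab18g021310-1.1 (19.2 CPM, others 9.28 to 11.3). Among the nic1 nic2 myc2a libraries, replicate 3 was low in Ntab18g018660-1.1 (8.92 CPM, others 11.9 to 12.3) and high in Ntab18g018670-1.1 (3.21 CPM, others 0.271 to 0.643). Replicate 2 was high in Ntab18g021820-1.1 (221.8 CPM, others 184.8 to 188), and replicate 1 low in Ntab18g022250-1.1 (25.8 CPM, others 29.98 to 30.8).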

How the results depend on the processing

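Over 4 K326 and 3 nic1 nic2 libraries left out in turn, the median ratio of nic1 nic2 to K326 ranged from 50.04 to 52.1%; with library size as the only scaling it was 53.9%, with nic1 nic2 myc2a at 105.3% and myc2a at 101.9%, a shift that the scaling itself makes. The medians without single K326 libraries ranged from 100.4 to 102.5% in nic1 nic2 myc2a and from 99.99 to 101.01% in myc2a, and myc2a was at 101.05% with a minimum of 8 CPM. Called members in nic1 nic2 numbered 82 to 121 over single left-out libraries (173 to 746 over all gene models), 102 with a replicate block (272 over all), 70 with only both genotypes compared (279 over all) and 70 with K326 replicate 2 and nic1 nic2 replicate 3 left out (119 over all). In myc2a the count was 0 or 1 over single left-out libraries (19 to 434 over all gene models). It was 0 with the replicate block (36 over all), with only both genotypes (43 over all) and without those libraries (22 over all). In nic1 nic2 myc2a it was 0 or 1 over single left-out libraries (67 to 427 over all gene models). There it was 3 with DESeq2 (998 of the 39668 gene models with an adjusted p) and 3 with only both genotypes (526 of all 41093). Same-numbered libraries of nic1 nic2 and K326 deviated with correlations of -0.084 to 0.078. The correlations with K326 were -0.130 to 0.047 for myc2a and -0.206 to 0.170 for nic1 nic2 myc2a. No pairing was used, and the block changed no other count of called members.

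Upward departures (4) ranged from 2 to 10 and downward ones (3) from 3 to 9 over single left-out libraries, with 10 upward without nic1 nic2 replicate 1 and 9 downward without nic1 nic2 replicate 2, where fewer libraries had to pass. Upward ones numbered 7 with a minimum of 0.5 CPM, 1 with 8 CPM, 2 with limits of 80 and 30%, and 7 with both of those libraries left out. Downward ones numbered 6 with a minimum of 0.5 CPM and 5 with limits of 70 and 36%. Against nic1 nic2 myc2a there were 5 upward (2 shared with those against K326) and 4 downward (1 shared). Of 310 alternative ratios of 31 named gene models, 298 moved by less than the SD between the nic1 nic2 libraries. Leaving out 1 nic1 nic2 library cannot move a ratio that far, and the limit is wider where these libraries disagree. The number is therefore no measure of stability. The cause of the changes in departures and ratios was not tested. Summed counts behind the class under 0.5 CPM were 167 to 320 in nic1 nic2.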
